A study of Oryza sativa with 4 samples.

Results

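Small RNAs of hydroponically raised rice seedlings (Oryza sativa cv. Pokkali, a salt-tolerant cultivar) were sequenced, and the lists deposited for the 4 libraries hold 783 different mature sequences at 939 hairpin loci. Described here are 10 predicted sequences with at least 10 matches in the rice genome and no sequenced miRNA*, listed at 23 loci in 21 different hairpins. They were chosen by 3 entries of the lists: no miRBase name, a number of genome matches of 10 or more, and no miRNA* on any line of the sequence in any library. Both the matches and the missing miRNA* are therefore descriptions of the choice and not results. The seedlings received 1.5% NaCl through the root on day 9, or no added NaCl, and were harvested after 9 h. Root was harvested without NaCl (CR) and with it (TR), and so was shoot (CS without and TS with NaCl), each condition with 1 library. There was no replicate of any condition, so no SD is given and no test of NaCl or of tissue was run, and each ratio below compares 2 libraries. The sources used here do not say how many seedlings went into a library. The lists hold small RNAs only, and the tissue labels were not checked against marker genes.

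A plant miRNA is cut by a Dicer-like enzyme from a transcript that folds back on itself, and the cut releases a duplex of the miRNA and its partner strand, the miRNA*. Reads of the miRNA* are a usual criterion for calling a hairpin a miRNA precursor. Inverted-repeat transposable elements, which are plentiful in rice, also fold into hairpins when they are transcribed and occur in many copies. Structural RNAs such as tRNA and rRNA fold as well, come from multigene families, and leave fragments of small RNA size. The study set aside reads that aligned with other non-coding RNA before it searched for miRNAs. Whether the 23 loci lie in genes, transposable elements or other annotated features was not analysed here, since no genome or annotation of the build of the lists (IRGSP-1.0) was used.

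The 10 mature sequences are shown because the families below rest on their letters. They are named M1 to M10 here in the order of their summed reads. Names in brackets are those of the study. Letters are DNA letters as deposited, 5′ to 3′, with the seed (bases 2 to 8) in capitals.
M1 (osa-miR12478): cGGGGATGgagcgacagaagca
M2 (osa-miR12481): tATTATAAgacgttttgact
M3: tAACATTTgaccgttcgtctta
M4: gTTGAGATggccgagttggt
M5: tAGTGGTTagcactccagact
M6: tCTGAATActagatatgaccc
M7: gTTGAGATggccgagttggtc
M8: tTGCGTCGttgtgcctgggc
M9: tTTTCCGCgtccaactttgacc
M10: tTAATATAtgacgtcgttgact

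M4 and M7 are the same sequence cut 1 base apart at the 3′ end, and they share the seed TTGAGAT. The other 8 seeds occur in 1 sequence each, so the 10 sequences have 9 different seeds. Of the 45 pairs of sequences, the pair M4 and M7 alone shared 16 or more identical bases (20 bases), and no other pair shared more than 8. The number of genome matches was 10 for M2, M6, M9 and M10, 12 for M1, 13 for M3, M5 and M8, and 16 for M4 and M7, which is the highest number in any of the 4 lists. Summed over the 10 sequences there were 123 matches, of which 23 were listed as loci with a predicted hairpin. M9 was listed at 8 of its 10 matches and M3 at 5 of 13. M4 and M7 were listed at the same 2 places, and the remaining 6 sequences at 1 locus each.

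The mature sequences were 20 nt long in 3 cases, 21 nt in 3 and 22 nt in 4. Among the 720 other predicted sequences, 11.5% were 20 nt, 29.9% were 21 nt and 58.6% were 22 nt long. T was the first base of 7 of the 10 (70%), against 57.2% of the other predicted sequences. G came first in M4 and M7, C in M1, and A in none of the 10. With 10 sequences, of which 2 are nested, these shares are a description only.

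The sequences fell into 2 kinds by the mean G+C of their hairpins, a split seen in the data and placed at 40% G+C. M2, M3, M9 and M10 had a mean hairpin G+C of 26.6% to 28.8%. Their hairpins averaged 115 to 209 nt. M1, M4, M5, M6, M7 and M8 had 45.5% to 62.9% G+C, in hairpins averaging 70 to 104.5 nt. No sequence of the 10 had a mean between 28.8% and 45.5%, a range that holds the median of the other predicted sequences (38.7%). Single hairpins did lie in this range. Those of M9 reached 31.1%, that of M3 on chromosome 11 had 43.5%, and that of M4 and M7 on chromosome 9 had 45.0%. The M3 hairpin on chromosome 11 is thus above the split, although M3 is counted with the A+T-rich kind. All 4 sequences of the A+T-rich kind began with T and contained the letters TTGAC, chosen after the sequences were seen, whereas 3 of the 6 G+C-richer sequences began with T and none contained these letters. TTGAC was found in 107 of the 720 other predicted sequences (14.9%), and in 22.4% of those with a hairpin G+C under 40%. T was the first base of 74.1% of the other predicted sequences with a hairpin G+C under 40%.

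Hairpins of the sequences of the A+T-rich kind are shown first, with the bases of the mature sequence in capitals. Coordinates are those of the hairpin in IRGSP-1.0 as deposited, and letters run 5′ to 3′ along the listed strand. For M3 a typical and an unusual locus are given, and for M9 1 of its 8 loci.
M2, chr6:21165329-21165443, + strand: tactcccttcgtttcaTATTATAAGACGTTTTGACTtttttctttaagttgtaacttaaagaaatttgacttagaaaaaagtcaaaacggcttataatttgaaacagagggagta
M3, chr4:20350077-20350241, - strand: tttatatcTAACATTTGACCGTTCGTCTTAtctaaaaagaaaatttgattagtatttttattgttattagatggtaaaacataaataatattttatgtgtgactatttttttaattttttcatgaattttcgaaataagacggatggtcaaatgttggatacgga
M3, chr11:18823202-18823309, + strand: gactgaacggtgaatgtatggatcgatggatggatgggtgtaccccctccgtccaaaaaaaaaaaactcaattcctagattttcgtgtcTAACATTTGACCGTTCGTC
M9, chr1:26322805-26323015, - strand: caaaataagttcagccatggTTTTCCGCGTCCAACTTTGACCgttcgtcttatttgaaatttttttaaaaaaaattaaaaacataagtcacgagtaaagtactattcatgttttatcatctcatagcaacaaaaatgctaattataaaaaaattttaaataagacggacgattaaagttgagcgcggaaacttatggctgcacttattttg
M10, chr11:26557861-26558061, + strand: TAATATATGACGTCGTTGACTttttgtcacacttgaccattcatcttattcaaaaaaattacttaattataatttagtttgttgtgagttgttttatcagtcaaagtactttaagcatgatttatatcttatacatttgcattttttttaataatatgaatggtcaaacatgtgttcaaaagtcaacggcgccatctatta

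M2, which the study named osa-miR12481, had the most stable fold per base of the 10. Its hairpin of 115 nt had a minimum free energy (MFE) of -53.6 kcal/mol, or -46.6 kcal/mol per 100 nt. In this hairpin 80% of bases were paired, 18 of the 20 mature bases among them, and the outermost 8 bases of both ends were complementary without a mismatch. The MFEI, which is the energy per 100 nt divided by the percent G+C and rises for a stable fold of low G+C, was 1.62, the highest of the 10. The median MFEI was 1.16 among the other predicted sequences. Among those with a hairpin G+C under 40% it was 1.35, with an upper quartile of 1.56 and a highest value of 2.6.

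M9 was the sequence with the most loci, with 3 on chromosome 1 and 1 each on chromosomes 2, 3, 8, 9 and 11. The 8 hairpins were 198 to 218 nt long, the longest hairpin of the set among them, with 25% to 31.1% G+C and an MFE of -91.1 to -59.7 kcal/mol. Over their 28 pairs, identity between hairpins was 78.8% to 95.8%, with a median of 87.9%. The mature sequence began at base 18 to 21 from the 5′ end in every one of the 8, and 9 to 18 bases at the outer ends of each hairpin were complementary without a mismatch. The likeness thus extended over the whole hairpin and was not limited to the 22 bases of the read. All 8 had the same read count because a list repeats the count of a sequence at each of its loci, and the copy a read came from cannot be told.

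M3 was listed on chromosomes 2, 4, 5, 8 and 11. The first 4 of these hairpins were alike, with an identity of 81.3% to 87.7%, 20.7% to 23.6% G+C and a length of 165 to 182 nt, and the mature sequence lay in the 5′ arm, with 20 to 22 of its 22 bases paired. The locus on chromosome 11 stood apart. It was 37.4% to 40.9% identical to the others, had 43.5% G+C over 108 nt, lay in the 3′ arm, and its hairpin stopped inside the mature sequence, which it held over 19 of 22 bases. M10 was also cut short at the end of its hairpin, which held the last 21 of the 22 mature bases. These were 2 of the 23 loci, and the other 21 held the mature sequence whole.

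M3 and M9 had just 7 identical bases in a row, yet 17 bases of M3, TTTGACCGTTCGTCTTA, were found in 2 of the 8 M9 hairpins, and the M9 hairpin printed here is 1 of them. In that hairpin the run begins in the last bases of the M9 mature sequence and continues after it. Relatives of both sequences occurred among the other predicted sequences. For M9 there were 5 that shared at least 16 bases with its hairpins, and for M3 there were 3. One of them is shown in full because it was counted with both. Like the relative of M9 printed after it, it differs from a sequence of the 10 in the last base alone.
M3 relative, 1 genome match, with a miRNA*: tAACATTTgaccgttcgtcttt
M9 relative, 2 genome matches: tTTTCCGCgtccaactttgact

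The M3 relative had 2 reads in CS and 3 in TS, and the M9 relative 5 reads in CS. The relatives of M9 together had 4 reads in TR, 21 in CS and 35 in TS, while M9 itself was listed in CS alone. So letters close to those of M9 were listed in libraries where M9 was not.

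The 6 G+C-richer sequences had shorter hairpins, with a median energy of -35.3 kcal/mol per 100 nt against -34.9 in the A+T-rich kind. Of their 6 different hairpins, 5 are shown, with the mature sequence in capitals. The M4 hairpin on chromosome 2 is also that of M7, whose mature sequence takes in the next base.
M1, chr2:19416155-19416254, + strand: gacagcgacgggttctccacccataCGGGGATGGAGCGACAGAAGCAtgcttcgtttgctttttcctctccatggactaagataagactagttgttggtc
M4, chr2:5569896-5569975, + strand: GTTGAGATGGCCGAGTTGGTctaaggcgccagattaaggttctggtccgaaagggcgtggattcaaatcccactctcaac
M5, chr2:8526087-8526165, - strand: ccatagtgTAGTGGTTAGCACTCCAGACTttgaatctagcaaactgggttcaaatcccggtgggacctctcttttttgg
M6, chr8:3586778-3586854, - strand: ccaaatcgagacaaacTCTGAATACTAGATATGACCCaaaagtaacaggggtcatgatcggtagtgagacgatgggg
M8, chr10:11974803-11974872, + strand: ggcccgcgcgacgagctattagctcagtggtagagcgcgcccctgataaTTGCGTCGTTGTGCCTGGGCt

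M1, named osa-miR12478 by the study, lay in a hairpin of 100 nt with 51% G+C, and 15 of its 22 mature bases were paired. Its MFE was -34.1 kcal/mol and its MFEI 0.669. M6 had the weakest fold of the 10 at -26.8 kcal/mol per 100 nt, and M5 and M10 were both at -29.7 kcal/mol. Over the 6 sequences the MFEI was 0.589 to 0.757, against 1.11 to 1.62 in the A+T-rich kind, a measure that divides by the G+C on which the kinds were split. The p-value of the fold that the prediction tool gave was at its lowest possible step (0.0099) at all 15 loci of the A+T-rich sequences. The M3 locus on chromosome 11, with 43.5% G+C, is among these. At 5 of the 8 other loci the p-value was above that step. For the hairpin on chromosome 2 shared by M4 and M7 it was 0.0495 in the M4 entry and 0.0198 in the M7 entry, so this deposited value varied between entries of the same letters.

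M4 and M7 began at base 1 of their hairpin on chromosome 2, whose outermost 7 bases at each end were complementary. Their hairpin on chromosome 9 held the mature sequence from base 13. From that base on it repeated the 80 nt of the chromosome 2 hairpin with 1 base changed. Over its whole 129 nt the identity was 61.2%, which reflects the difference in length. M8 and the M3 locus on chromosome 11 were the 2 loci of 23 in the 3′ arm. The hairpins were searched on both strands for letters of the internal promoter boxes of tRNA genes, chosen after the hairpins were seen. GTTCNANNC (the B box) was in 2 of the 21 hairpins (9.52%) and in 3.27% of the 764 other predicted hairpins. The A box, searched as TNGNNNAG followed by TNGG or TGG (N for any base), was in 4 of 21 (19.0%) and in 2.09% of the others. The A box letters were in both hairpins of M4 and M7 and in those of M5 and M8, and the B box letters in that of M5 and the M4 and M7 hairpin on chromosome 9. None of the hairpins of the A+T-rich sequences held either. The base by which the 2 hairpins of M4 and M7 differ lies in the B box letters. It is ATTCAAATC on chromosome 2 and GTTCAAATC on chromosome 9. Letters known from the ends of 2 types of rice inverted-repeat elements were searched too, CTCCCTCC for Stowaway and GTTTGGTT for Tourist. These exact letters were in none of the 21, against 5.63% and 0.785% of the other hairpins. The M2 hairpin misses the Stowaway letters by 1 base at each end, at its 3′ end on the reverse strand. The M3 hairpin on chromosome 11 also holds them with 1 base changed. Such near matches were counted in neither set. The percentages therefore do not show which set holds more sequence like that of Stowaway. The 2 box motifs do not overlap each other. A match of letters is not a site, and a missing match says only that these exact letters are not in the printed window.

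**Figure D1:**
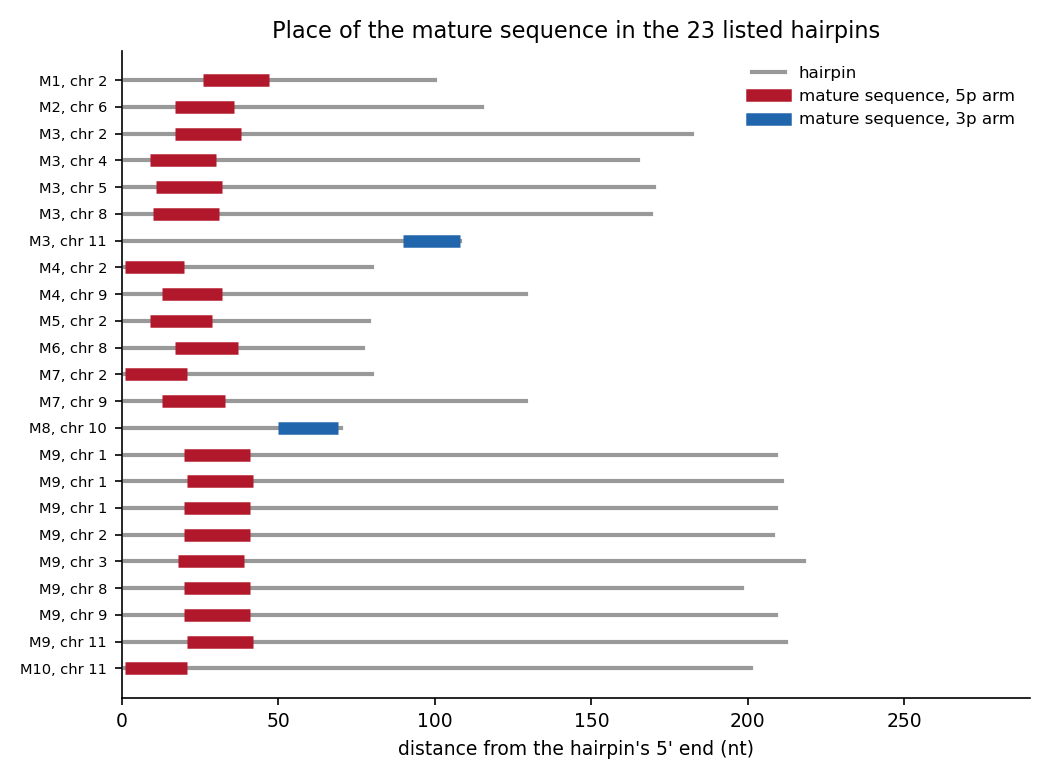
Each grey line is 1 of the 23 listed hairpins, drawn from its 5′ end at the left in nt, and the coloured block is the part taken by the mature sequence, red in the 5′ arm and blue in the 3′ arm. The 8 M9 hairpins are 198 to 218 nt long with the block at almost the same place, while the hairpins of M1, M5, M6 and M8 are 70 to 100 nt long.

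Set beside the other predicted sequences, the 10 had hairpins of like length (median 104.5 nt against 113.5 nt) and a weaker fold. Their median energy was -35.3 kcal/mol per 100 nt, against -38.9 for the 499 single-copy sequences without miRNA*, -38.4 for the 122 with 2 to 9 matches and -47.3 for the 99 with a miRNA*. Median base pairing was 68.8% of the hairpin, against 74.8%, 74.2% and 78.3% in these 3 classes. All 10 sequences reached 10 reads in some library, as did 66 other predicted sequences. Of those 66, 22 had a miRNA*, which the rule excludes from the 10, so the 2 sets also differ by the choice. Against the 66, the median energy was -35.3 against -44.2 kcal/mol per 100 nt and the median hairpin G+C 46.1% against 45.7%. These are medians over 10 sequences, not over independent loci. With each of the 23 loci counted, the median G+C was 30.3%, since M3 and M9 alone gave 13 of the loci.

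**Figure D2:**
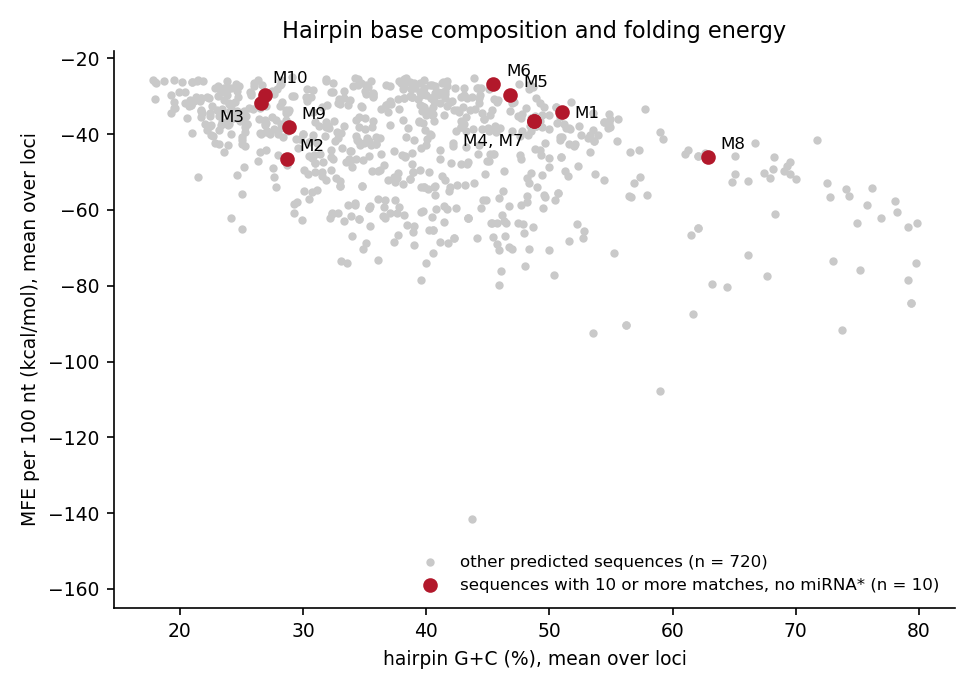
Hairpin G+C in percent on the x axis and folding energy in kcal/mol per 100 nt on the y axis, each a mean over the loci of a sequence, for the 10 sequences (red) and the 720 other predicted sequences (grey). The red points form a group at 26.6% to 28.8% G+C and a group at 45.5% to 62.9%, and M2 is the lowest of them at -46.6 kcal/mol per 100 nt.

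The 23 loci lay on 10 of the rice chromosomes, with 6 loci on chromosome 2, 3 each on chromosomes 1, 8, 9 and 11, and 1 each on chromosomes 3, 4, 5, 6 and 10. Of the loci, 14 were on the plus and 9 on the minus strand, and 21 had the mature sequence in the 5′ arm. Chromosome 2 held loci of 6 of the 10 sequences (M1, M3, M4, M5, M7 and M9).

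At the edge of the rule, the 4 sequences with 10 matches had 12 to 91 reads in their highest library and a hairpin G+C of 26.9% to 45.5%. Just outside it, 3 predicted sequences without miRNA* had 9 matches, with 23 to 70 reads and 48.3% to 61.5% G+C, and 4 had 8 matches, with 9 to 13 reads and 21.4% to 53.5% G+C. A further 2 predicted sequences had 10 or more matches but were left out because a miRNA* was recorded. The more abundant of these, tCCATTGTcgtctagtccgg with 10 matches, had 206 and 398 reads in CR and TR and 108 and 153 in CS and TS, above all of the 10 in root.

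Read numbers depend on how the lists were made. In every one of the 1292 list entries the read count was above the number of genome matches, with a lowest ratio of 1.125, although the sources used here do not state such a filter. A sequence with 10 to 16 matches thus appears only with more reads than that, while a single-copy sequence appears with 2. The higher counts of the 10 (12 or more reads in their highest library, against a median of 2 for single-copy sequences without miRNA*) are given by this and are no finding. An unlisted sequence may have been sequenced, so it was given neither a 0 nor a fold. Prediction used 6887961 reads of CR, 12126876 of TR, 13116913 of CS and 9765004 of TS, so 1 read is worth 0.145, 0.0825, 0.0762 and 0.102 RPM (reads per 1000000 of these). Intervals are exact 95% intervals and cover counting error only, since each condition has 1 library. They treat reads as independent, which PCR copies are not, so they may be too narrow even for that.

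M1 (osa-miR12478) was the most abundant of the 10. It had 556 reads in CS, or 42.4 RPM (exact Poisson interval 38.9 to 46.1), and 549 reads in TS, or 56.2 RPM (51.6 to 61.1), and was not among the entries of either root library. Among the predicted sequences it had rank 3 in CS and rank 1 in TS. M2 (osa-miR12481) was the only sequence listed in all 4 libraries. In root it had 15 reads in CR (2.18 RPM) and 39 in TR (3.22 RPM), in shoot 91 in CS (6.94 RPM) and 78 in TS (7.99 RPM). Both shoot values of M2 were above both root values, and their intervals did not overlap.

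M3 was listed in CR (23 reads, 3.34 RPM), TR (20 reads, 1.65 RPM) and CS (37 reads, 2.82 RPM). M4 was listed in the root libraries alone, with 25 reads in CR (3.63 RPM) and 20 in TR (1.65 RPM). M7, which is M4 with 1 more base, was listed in CS alone with 21 reads (1.60 RPM). The shorter form was thus listed in root and the longer in shoot. Since reads exceeded matches in every entry, either form, with 16 matches, may go unlisted at 16 reads or fewer. The tissue difference of the 2 forms was therefore not tested.

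M5 was listed in CR alone with 35 reads (5.08 RPM), which made it the most abundant of the 10 there, with rank 8 among the predicted sequences. M6 had 35 reads in CS (2.67 RPM), M8 had 15 (1.14 RPM), M9 had 13 (0.991 RPM) and M10 had 12 (0.915 RPM), and none of these 4 was listed elsewhere. M8, M9 and M10 lay 2 to 3 reads above their number of matches. CS, with the most reads used, listed 8 of the 10 sequences and 5 that no other library listed. CR, with the fewest reads used, listed 4, TR 3 and TS 2. All predicted sequences listed were 316 in CS, 91 in CR, 198 in TR and 272 in TS. Of the 10, 6 (60%) were listed in 1 library only, against 85.7% of the other predicted sequences.

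**Figure D3:**
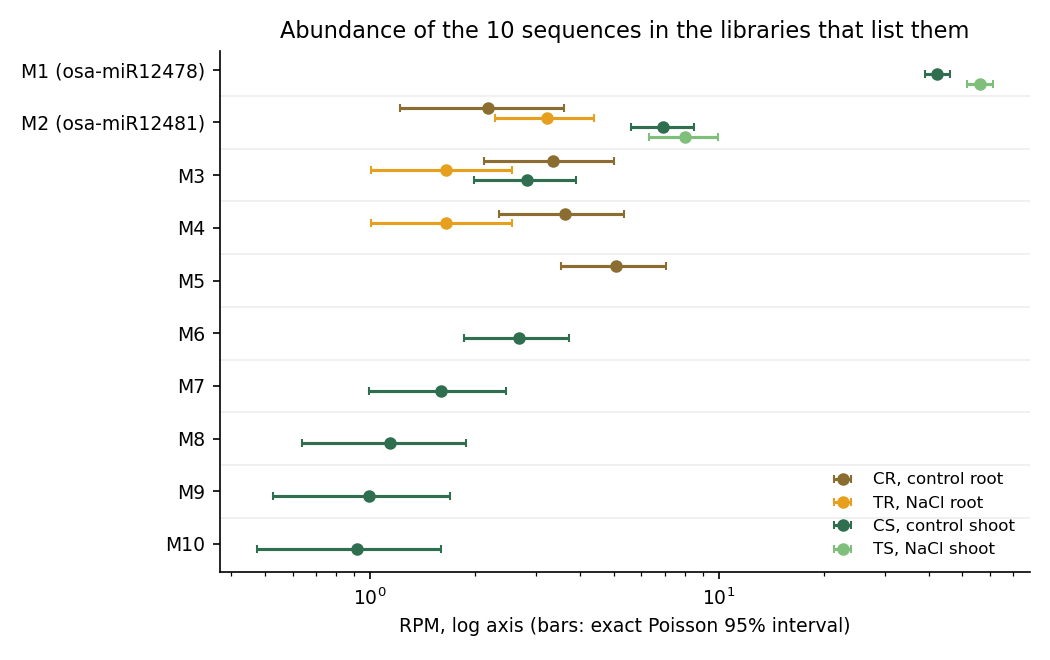
RPM on a log axis for each of the 10 sequences in each library that lists it, with exact Poisson 95% intervals as bars, and with no point where a sequence is not listed. M1 lies at 42.4 and 56.2 RPM in the shoot libraries, M2 between 2.18 and 7.99 RPM in all 4 libraries, and M8, M9 and M10 near 1 RPM in CS alone.

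The part the 10 sequences took of all listed predicted reads differed between libraries. It was 9.82% in CR (98 of 998 reads, exact binomial interval 8.04% to 11.8%), 4.10% in TR (79 of 1929, 3.26% to 5.08%), 2.41% in CS (780 of 32362, 2.25% to 2.58%) and 22.2% in TS (627 of 2824, 20.7% to 23.8%). The intervals of the 4 shares did not overlap. M1 alone gave 71.3% of the reads of the 10 in CS and 87.6% in TS. With its reads taken out of the numerator but kept among the predicted reads, the shares were 0.692% and 2.76%. M5 gave 35.7% of the reads of the 10 in CR and M2 49.4% in TR. With these taken out in the same way the shares were 6.31% and 2.07%. The gap between CS and TS rested on 1 other sequence: osa-miR12474, predicted and not among the 10, had 29014 of the 32362 predicted reads of CS. Without the most abundant other predicted sequence of each library, an alternative chosen after seeing the data, the share was 23.3% in CS (21.9% to 24.8%) and 24.5% in TS (22.9% to 26.3%), and these intervals overlapped. In root it was 12.4% in CR and 5.16% in TR.

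**Figure D4:**
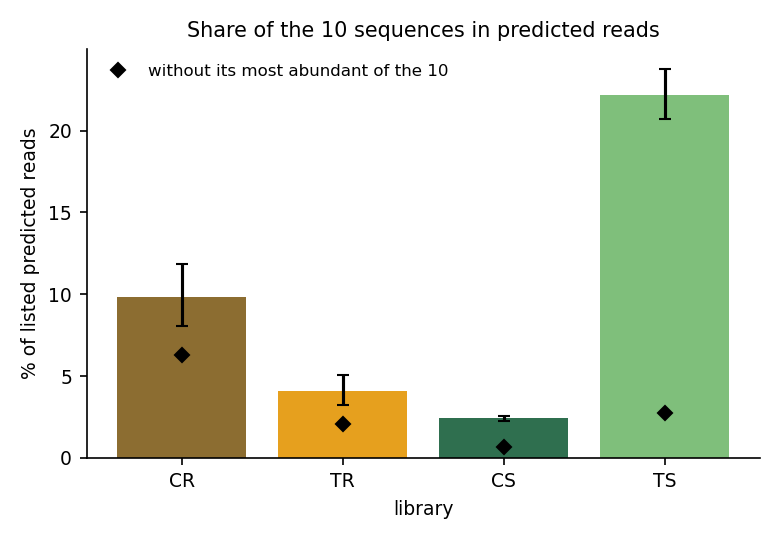
Bars give the share of the 10 sequences in the listed predicted reads of each library in percent, with exact binomial 95% intervals. Diamonds give the share with the most abundant of the 10 in that library left out of the numerator only. The share is 22.2% in TS and drops to 2.76% there with M1 left out of the numerator. The low share in CS (2.41%) is 23.3% when osa-miR12474 is left out of its denominator.

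The summed abundance was 14.2 RPM over 4 sequences in CR (mean 3.56 RPM), 6.51 RPM over 3 in TR (mean 2.17), 59.5 RPM over 8 in CS (mean 7.43) and 64.2 RPM over 2 in TS (mean 32.1). TR over CR gave 0.458 (exact conditional interval 0.336 to 0.622), and TS over CS gave 1.08 (0.970 to 1.20). The root value was no longer called under each of the 6 other scalings (0.570 to 0.763). Without M1, the most abundant in both shoot libraries, TS over CS was 0.468 (0.357 to 0.608), past the threshold for a call described below. These sums move with how many sequences a list holds. Over the 3 sequences listed in both root libraries the ratio was 0.712 (0.505 to 1.01), and over the 2 listed in both shoot libraries it was 1.30 (1.16 to 1.46). The A+T-rich kind summed to 5.52 RPM over 2 sequences in CR, 4.87 over 2 in TR, 11.7 over 4 in CS and 7.99 over 1 (M2) in TS. For the G+C-richer kind the sums were 8.71 RPM over 2 sequences in CR, 1.65 over 1 in TR, 47.8 over 4 in CS and 56.2 over 1 in TS.

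To compare NaCl with control and shoot with root, the ratio of the 2 RPM values was taken for each sequence listed in both libraries. Calls required a ratio of 2 or more, or of 0.5 or less, with an interval that excluded 1. In root, M3 was lower in TR than in CR with a ratio of 0.494 (0.257 to 0.940), and so was M4 with 0.454 (0.239 to 0.852). These were 2 of the 3 sequences that could be compared, where 23.9% of all 46 shared sequences were called, 13% lower and 10.9% higher. Both lay close to the threshold, with 20 reads each in TR, and both calls were lost under each of the 6 other ways of scaling the libraries (0.615 to 0.823 for M3 and 0.565 to 0.757 for M4). M2 had a ratio of 1.48 (0.796 to 2.88) and was not called, but was called higher under 4 of the 6 other scalings (1.84 to 2.46 over all 6). The median log2 ratio of the 46 shared sequences was -0.32 with the deposited RPM and 0.42 with counts divided by raw reads.

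In shoot, neither of the 2 sequences that could be compared was called, where 30.2% of the 96 shared sequences were called, 22.9% higher and 7.29% lower. M1 had a ratio of 1.33 in TS over CS (1.18 to 1.50), above 1 by more than counting error and under the 2-fold threshold. Its value was 0.927 to 1.94 under the other scalings and below 1 under 2 of the 6. On the log2 scale M1 stood at 0.407, while half-way through the 96 shared shoot sequences, at their median, the value was 0.426. With the deposited RPM, M1 therefore did not stand out from the shared sequences. M2 had a ratio of 1.15 (0.840 to 1.58), which lay below 1 under 4 of the 6. No direction of M1 or M2 between the shoot libraries can be given from the lists. In the paper's Northern blots of Pokkali, osa-miR12478 (M1) and osa-miR12481 (M2) decreased in shoot and increased in root with NaCl.

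Between tissues, M2 was higher in shoot than in root in both pairs of libraries. Without NaCl the ratio of CS over CR was 3.19 (1.83 to 5.92), and M2 was 1 of the 2 sequences compared, where 36% of 50 shared sequences were called, 22% higher and 14% lower. With NaCl the ratio of TS over TR was 2.48 (1.67 to 3.75), where 48.9% of 47 shared sequences were called, 31.9% higher and 17% lower, and M2 was the sole one of the 10 listed in both. The first call held under all 6 other scalings (2.58 to 5.28), the second under 3 of 6 (1.49 to 2.59). M3 had a ratio of 0.845 in CS over CR (0.489 to 1.49) and was not called, and its value lay above 1 under 3 of the 6 other scalings. M1 was listed in both shoot libraries and neither root library, and M4 in both root libraries and neither shoot library. For neither was a fold computed. In the paper's Northern blots, by contrast, osa-miR12478 (M1) was found in both tissues and was more prominent in root. Its absence from the root lists therefore does not show that M1 was absent from root.

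**Figure D5:**
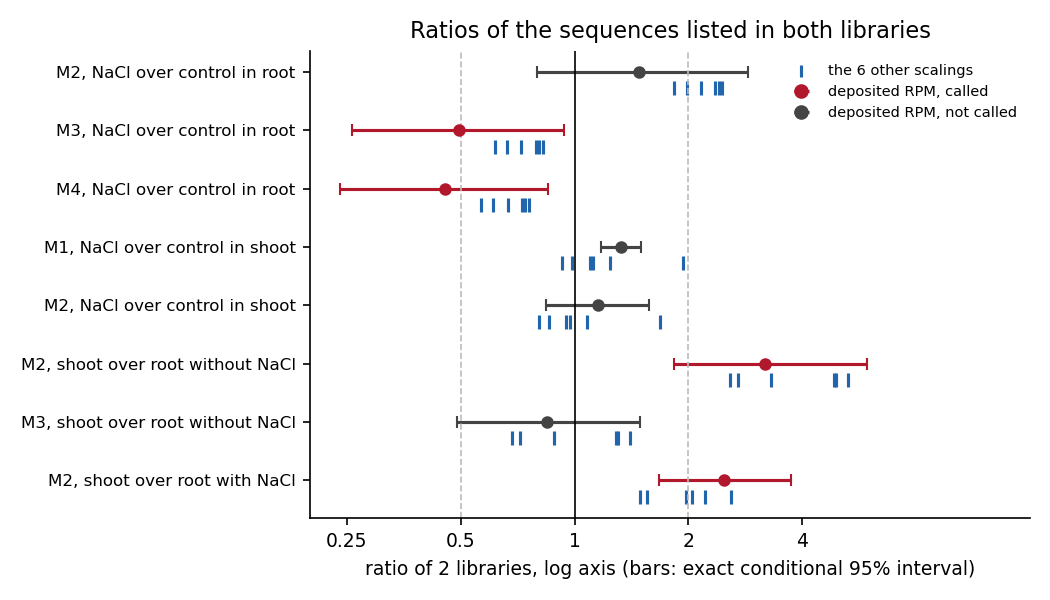
Ratio of 2 libraries on a log axis for each of the 10 sequences listed in both, with exact conditional 95% intervals as bars, red where called and grey where not, and blue ticks for the values under the 6 other scalings. Broken lines mark 0.5 and 2. M2 lies above 2 in both shoot over root comparisons (3.19 and 2.48), and the blue ticks of M3 and M4 in root all lie to the right of the 0.5 line.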

How the data were processed

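Small RNA libraries of Pokkali root and shoot, 1 for each of 4 conditions, were used as listed by the authors, who trimmed the single-end Illumina reads (for read processing the paper names the UEA Small-RNA Workbench, cutadapt and NGS QC Toolkit, with no version), set aside other non-coding RNA, searched miRBase and predicted further hairpins. Which tool predicted the hairpins is not stated in the paper or labels. The lists give deposited abundance as the read count of a sequence, with the same count on every locus. The deposited RPM is the count per 1000000 reads used for prediction, and a deposited column holds its log2. The authors also deposited hairpin G+C in percent, folding energy in kcal/mol and the p-value of the fold. Deposited mature coordinates lie 1 base above the place of the same letters in the hairpin, in all 1243 of the 1292 entries whose hairpin holds the whole mature sequence, so hairpin coordinates are printed.

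Each sequence and locus was counted once. Ratios have exact conditional (Clopper-Pearson) 95% intervals, shares exact binomial and RPM exact Poisson ones. Scalings by raw, trimmed, NONCODE-unaligned or listed reads, median of ratios and TMM of edgeR, other match, read and fold minimums and other counting units were tried. Sequences named one by one are those the study names, those listed in all libraries, the 3 with most reads in each library, those called, and those with extreme matches, energy or length. M8 and M10 were added after their values were seen. The 10 sequences and all lists and motifs were chosen with earlier results of these data known. Python 3.11.15 (numpy 2.4.6, pandas 2.3.3, scipy 1.17.1, Biopython 1.88, matplotlib 3.10.9) and R 4.3.3 (edgeR 4.0.16) were used.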

Additional observations from a re-analysis of the deposited data

How the results depend on the processing

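With at least 5 genome matches required, 37 sequences in place of 10 met the rule, and with 20 matches 0 did, so no other value was given there. The number called between the root libraries (2) was 1 with counts divided by raw, trimmed, NONCODE-unaligned or listed reads and 0 with median of ratios or TMM. Shoot gave 1 in place of 0 at 5 matches, and shoot over root with NaCl gave 0 in place of 1 with trimmed reads, median of ratios and TMM. The cause was not tested.

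The summed root ratio of 0.458 was no longer called with raw (0.763), trimmed (0.747), NONCODE-unaligned (0.731) or listed reads (0.670), median of ratios (0.570), TMM (0.615) or sequences in both libraries only (0.712). That of shoot, 1.08, fell below 1 with raw reads (0.893), trimmed reads (0.911), median of ratios (0.804), TMM (0.754) and without the most abundant sequence of either library (0.468, then called lower). M2 in shoot turned to 0.952 with raw reads, 0.971 with trimmed reads, 0.857 with median of ratios and 0.804 with TMM, and M1 to 0.987 and 0.927 with the last 2. M3 in shoot over root without NaCl turned to 1.40 with raw, 1.30 with trimmed and 1.29 with NONCODE-unaligned reads.

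Shares of predicted reads in CR, TR, CS and TS were 19.7%, 9.43%, 3.18% and 30.5% at 5 matches, 6.31%, 2.07%, 0.692% and 2.76% without the most abundant sequence, 12.1%, 5.39%, 1.67% and 14.1% with each list entry counted, and 12.4%, 5.16%, 23.3% and 24.5% without the most abundant other predicted sequence. Counting each locus, median hairpin G+C was 30.3%, length 169 nt and mature length 22 nt. Of 138 alternative values, 67 were counted as unchanged, 31 as moved, 22 as weaker, 14 as reversed and 4 as stronger. The unchanged ones include numbers of sequences that differed somewhat from the main value. With a fold p-value of at most 0.01 from the prediction tool, 7 sequences in place of 10 met the rule. With the miRNA* looked for only within the same library, 11 did. At 5 matches, 3 sequences in place of 2 were called in root. The related pair was found at 14, 16 and 18 shared bases. No paired analysis was possible because each condition has 1 library. An additive model of tissue and NaCl, which leaves 1 residual degree of freedom, was not run. Outside M1 and M2, the sequences had 12 to 37 reads in a library, and their ratios have wide intervals.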
